A study of Mus musculus with 4 samples.

Results

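Among mouse MLL-AF9 leukaemia cells profiled one by one, 327 of 5456 cells were taken for their high level of 4 transcripts, Cpa3, Mcpt8, Npy and Adgrg1, of which Cpa3 and Mcpt8 are used as markers of the mast cell and basophil branch of blood formation. They were chosen by a score over the 4 genes. The score was the mean of the natural log of 1 plus the UMIs per 10000 UMIs of the cell, and the 6% of cells with the highest score were taken. A UMI, or unique molecular identifier, marks 1 captured transcript molecule. The 4 score genes therefore describe how these cells, called the members here, were picked, and their levels are no finding. The comparisons below concern the other genes. Ratios were taken within a library suffix, in the main comparison against its remaining cells. Shares of cells with a UMI of a gene pool the suffixes unless given by suffix.

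The leukaemias had been started from c-Kit+ marrow cells of Hif-1alphaLox/Lox; CreERT2 mice, in which tamoxifen activates the Cre recombinase, by retroviral transduction with MLL-AF9 and passage through wild type recipients. Recipients of the primary leukaemias received 1 mg tamoxifen or vehicle over 5 days, and then PBS or a chemotherapy of 100 mg/kg cytarabine over 5 days with 3 mg/kg doxorubicin over 3 days. GFP+ (transduced) bone marrow cells of C57BL6 mice aged 11 weeks were sorted 3 days after treatment ended. The groups were Hif-1a wt with PBS, Hif-1a KO with PBS, Hif-1a wt with chemotherapy and Hif-1a KO with chemotherapy, with 1 sample each. All groups share the MLL-AF9 retrovirus, the GFP sort and the floxed origin. The labels do not give the promoter that drives CreERT2 or the number of mice behind a sample. Barcodes carry a suffix from 1 to 4, and no label ties a suffix to a sample. The members are therefore given by suffix, with no comparison of genotype or treatment and no p-value.

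Mast cells and basophils are granulocytes that carry the high-affinity IgE receptor and store histamine and proteases bound to serglycin. Mast cells leave the marrow as progenitors and mature in tissues under the growth factor receptor KIT, while basophils mature in the marrow. GATA2 is required for the mast cell lineage and is also a regulator of blood stem cells. Carboxypeptidase A3 (Cpa3) is among the earliest mast cell granule enzymes and is also transcribed in early blood progenitors. Mcpt8 encodes a granule serine protease used as a mouse basophil marker, Npy encodes neuropeptide Y, and Adgrg1 encodes the adhesion receptor GPR56, which is found on blood stem and leukaemia stem cells.

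Cpa3 (ENSMUSG00000001865.2) lies on the minus strand of chromosome 3 from 20215620 to 20242181 in GRCm38, and Mcpt8 (ENSMUSG00000022157.8) on the minus strand of chromosome 14 from 56082166 to 56085273. Npy (ENSMUSG00000029819.6) lies on chromosome 6 from 49822710 to 49829507, and Adgrg1 (ENSMUSG00000031785.16) on chromosome 8 from 94974751 to 95014217, both on the plus strand. The promoters of the protease genes of the score are shown. Each covers 300 bases around the RefSeq start site in GRCm38.p6, at chr3:20242132-20242431 for Cpa3 and chr14:56085148-56085447 for Mcpt8, read on the minus strand. Capitals mark AGATAA, the letters bound by GATA factors.

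Cpa3: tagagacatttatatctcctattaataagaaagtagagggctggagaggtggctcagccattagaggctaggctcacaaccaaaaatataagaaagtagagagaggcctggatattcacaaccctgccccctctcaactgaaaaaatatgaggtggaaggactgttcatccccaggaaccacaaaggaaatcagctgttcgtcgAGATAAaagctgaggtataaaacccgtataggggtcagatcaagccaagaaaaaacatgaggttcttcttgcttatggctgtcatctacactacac

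Mcpt8: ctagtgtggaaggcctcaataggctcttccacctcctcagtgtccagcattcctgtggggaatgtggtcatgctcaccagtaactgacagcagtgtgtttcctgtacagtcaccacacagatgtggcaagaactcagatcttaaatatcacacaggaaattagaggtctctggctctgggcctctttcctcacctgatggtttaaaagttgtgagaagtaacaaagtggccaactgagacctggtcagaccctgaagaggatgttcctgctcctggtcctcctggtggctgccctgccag

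The Cpa3 promoter held 1 match to AGATAA, at position -46 from the start site, and the Mcpt8 promoter held 0 on either strand. The Mcpt8 promoter held 2 matches to TGTGGT, the letters bound by RUNX factors, against 1 in the Cpa3 promoter, and 1 match to GAGGAA, the core bound by ETS factors. Ms4a2, the beta chain of the IgE receptor, had 3 AGATAA matches in its promoter window, at -224, -37 and -11. RefSeq held promoters for 25 of the 32 mast, basophil and score genes searched. AGATAA was present in 4 of their 32 promoters (12.5%), beside 11.18% of all 32851 promoters of this length. TGTGGT was present in 25% of the 32, beside 16.76% of all. These are letter matches on both strands and not measured binding sites.

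The kept cells held 7644436 to 9932649 UMIs in a suffix. Of the 5664 barcodes, 208 had over 10% mitochondrial UMIs and were left out. Members were shallower than the other cells in every suffix, with median UMIs of 4737.5, 4040.5, 3132.5 and 2889 against 6377.5, 6592, 5406 and 5409 in suffixes 1 to 4. Their median mitochondrial share lay between 2.80% and 2.95%. A barcode sequence occurred in more than 1 suffix 17 times, and 2 members carried such a sequence. Suffixes 3 and 4 differed from suffixes 1 and 2 in many myeloid genes, so values are given for each suffix.

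Members made up 13.3% of the cells of suffix 1 (156 of 1174, exact binomial 95% interval 11.4 to 15.4). The share was 7.51% in suffix 2 (94 of 1251, 6.11 to 9.12), 3.08% in suffix 3 (50 of 1625, 2.29 to 4.04) and 1.92% in suffix 4 (27 of 1406, 1.27 to 2.78). The intervals cover counting error only. They did not overlap between suffixes 1, 2 and 3, while those of suffixes 3 and 4 did. With a score without Mcpt8 the shares in suffixes 3 and 4 were 3.88% and 2.92%, and with a score without Cpa3 they were 1.35% and 1.14%.

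**Figure D1:**
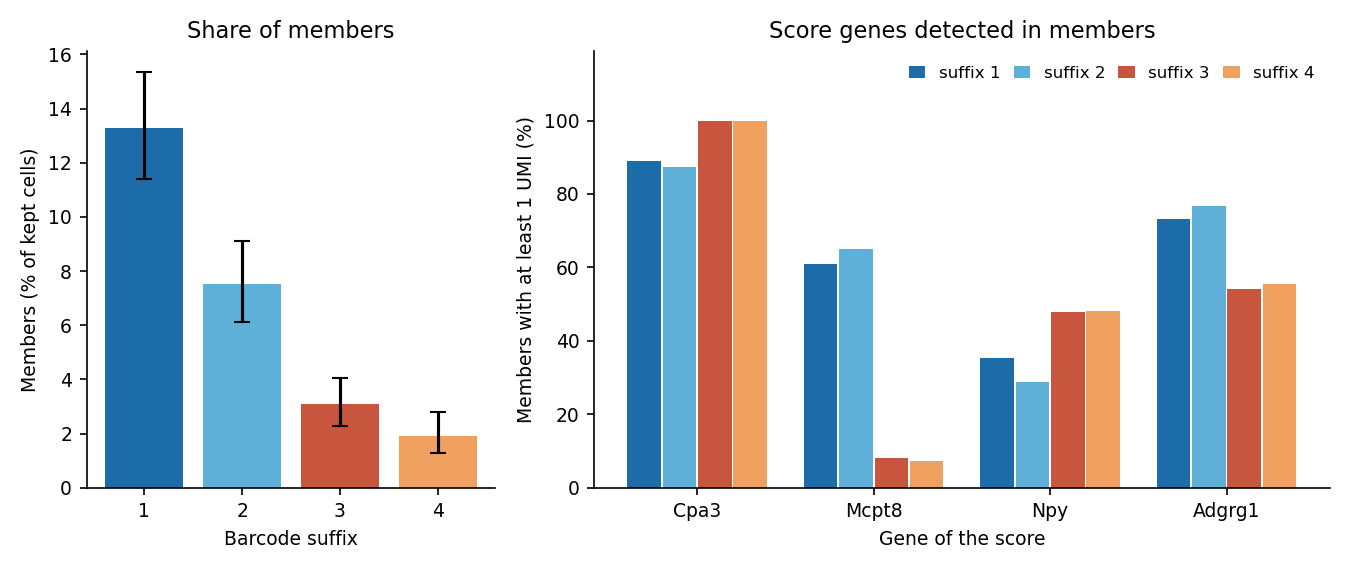
Left, members as a percentage of the kept cells of each barcode suffix, with exact binomial 95% intervals, falling from 13.3% in suffix 1 to 1.92% in suffix 4. Right, percentage of members with at least 1 UMI of each score gene by suffix. Mcpt8 was found in 60.9% and 64.9% of members of suffixes 1 and 2 and in 8.0% and 7.41% of those of suffixes 3 and 4.

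The rule admitted cells by more than 1 route. Cpa3 was found in 298 members (91.1%), Adgrg1 in 228 (69.7%), Mcpt8 in 162 (49.5%) and Npy in 119 (36.4%). Only 17 members had UMIs of all 4 genes, 139 had 3 of them, 151 had 2 and 20 had 1, which in all 20 was Cpa3. The most frequent combination was Cpa3 with Mcpt8 and Adgrg1, in 77 members, followed by Cpa3 with Adgrg1 in 62. Npy was found without Mcpt8 in 83 members and with it in 36. The lowest member had a score of 0.882, from 1 Cpa3, 1 Mcpt8 and 2 Adgrg1 UMIs among 5712. The next cell below it had a score of 0.880, from 2 Cpa3 and 2 Mcpt8 UMIs among 4152. Of the 5129 other cells, 3722 (72.6%) had none of the 4 transcripts.

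The score genes are given by suffix. Cpa3 in members stood at 1236, 1137, 3352 and 2620.2 CPM (UMIs of a gene over all UMIs of the cells summed, scaled to a common total) in suffixes 1 to 4. Mcpt8 stood at 506, 689.7, 24.1 and 23.5 CPM in the same order. These levels describe the selection, since a cell with little Mcpt8 has to pass the limit through the other score genes. Npy stood at 208, 134, 463 and 611 CPM and Adgrg1 at 245, 299.7, 235 and 270.2 CPM. Of the 50 members of suffix 3, 4 had a Mcpt8 UMI, and of the 27 of suffix 4, 2 had one.

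The label of mast and basophil progenitor-like cells was borne out in part. Of 56 mast cell and basophil genes on the lists outside the score, 35 had a UMI in the kept cells and 28 had none in any member. Absent in all members were Fcer1a, the IgE-binding chain of the receptor, and Prss34, a basophil protease. Transcripts of the mature mast cell proteases Cma1, Mcpt1, Mcpt2, Mcpt4, Tpsb2 and Tpsab1, of the IL-33 receptor Il1rl1, and of Il4 and Il13 were absent as well. A count of 0 allows up to 3.74, 6.61, 18.1 and 35.2 CPM in members of suffixes 1 to 4, taking 3 counts as the limit. Ms4a2 had 3 and 7 UMIs in members of suffixes 1 and 2 and 0 in those of suffixes 3 and 4. Cyp11a1, a steroid enzyme transcribed in mouse basophils, had 3, 7, 1 and 0 UMIs in members. Gata1, which acts with Gata2 in mast cell and basophil differentiation, had 1 UMI each in members of suffixes 1 and 2. Rare as they were, Ms4a2 and Gata1 were rarer still in the other cells. Without thinning and over all suffixes pooled, a Ms4a2 UMI was found in 1.53% of members and 0.195% of the others. For Gata1 the shares were 0.612% and 0%. Not all genes of the lists had this direction. Mitf, on the mast cell list, was found in 0.306% of members and 0.975% of the others, and Fcer1a in 0% and 0.117%. The members are therefore named below by their score genes or as members, and not as mast cells or basophils.

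Genes were compared where they averaged at least 20 CPM over members and other cells, which left 4784 genes outside the score. Both sides had equal weight, so a gene low in the other cells could enter only through its level in members, and the reverse. Kit, Ikzf2 and Angpt1, which count in lists below, stood below 20 CPM in the other cells. A ratio is the log2 of members over other cells, each as CPM + 5, and a gene's value is the median over the suffixes that hold at least 30 members, which were suffixes 1, 2 and 3. A gene was called where members and other cells were at least 1.5-fold apart in each of them, in the same direction. Higher were 86 genes (1.8% of those compared) and lower were 77 (1.61%). When each cell was thinned to 2000 UMIs, members were picked anew and suffixes 1 to 4 all entered the calls. Under that stricter rule, 38 of the 86 and 45 of the 77 were called again. With TMM scaling, which sets each profile against the bulk of its genes, 66 genes were higher and 106 lower. The median over all genes was 0.04 on the log2 scale. Without suffix 1, 215 genes were higher and 135 lower, and without suffix 2, 133 were higher. Suffix 4, with 27 members, was not used for the calls. There, 79 of the 86 higher genes had the same direction and 61 were at least 1.5-fold up, against 18.0% of all genes compared. Of the 77 lower genes, 73 had the same direction and 62 were at least 1.5-fold down, against 27.4% of all.

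**Figure D2:**
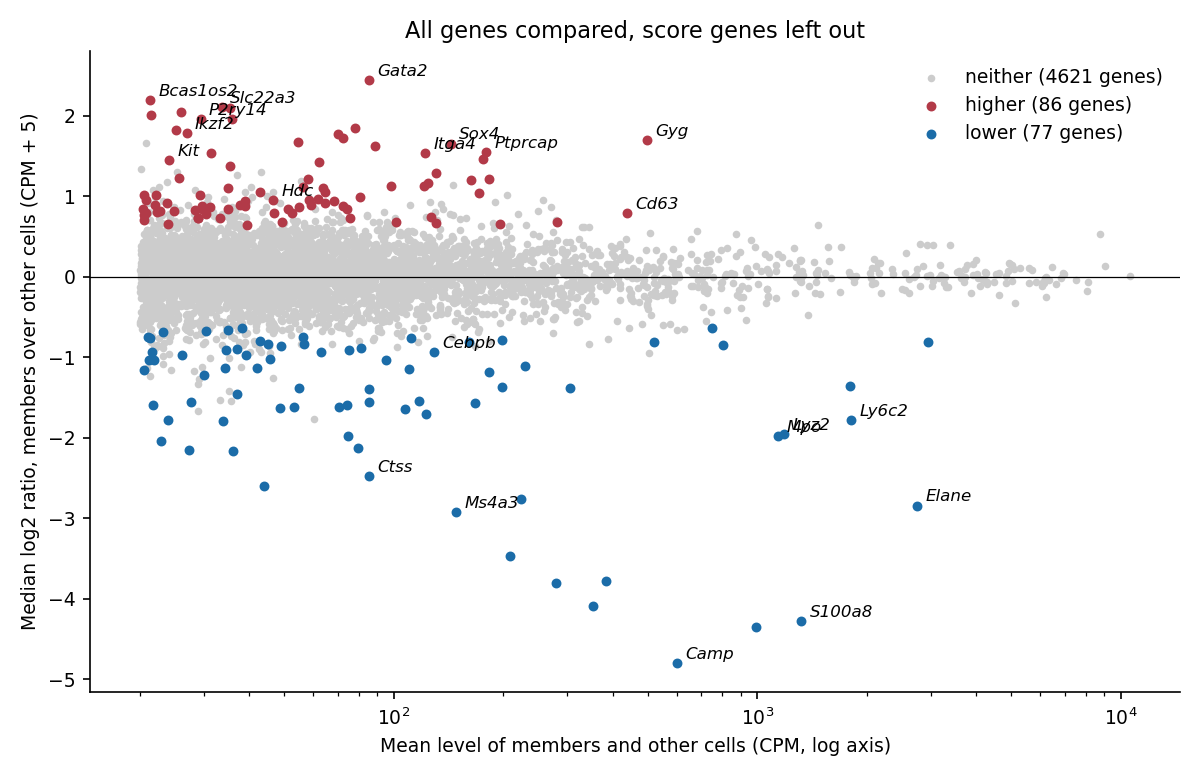
Median log2 ratio of members over other cells (CPM + 5, vertical axis) against the mean level in CPM (log axis) for the 4784 genes compared, each point 1 gene. Red points are the 86 genes higher and blue points the 77 genes lower in members, with Gata2 at 2.45 as the highest and Camp at -4.80 as the lowest.

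Gata2 had the largest ratio of all genes compared. It lies on the plus strand of chromosome 6 from 88193891 to 88207032 (ENSMUSG00000015053.14). Members held 94.9, 134, 211 and 164 CPM of Gata2 in suffixes 1 to 4, and the other cells 24.8, 20.6, 27.1 and 22.8 CPM. The exact Poisson 95% intervals were 74.7 to 119, 103 to 173, 147 to 293 and 89.9 to 276 CPM in members and 21.2 to 28.9, 17.5 to 24, 24 to 30.6 and 19.7 to 26.3 CPM in the other cells, for counting error only. The lowest member value lay well above the highest value of the other cells, and the median log2 ratio was 2.45. After each cell was thinned to 2000 UMIs, which left 317 members and 5025 other cells, a Gata2 UMI was found in 20.5% (95% interval 16.2 to 25.4) of members and in 5.55% (95% interval 4.94 to 6.22) of the others. In the 107 thinned cells highest in the neutrophil granule genes Ngp, Camp and S100a9, which should lack Gata2, the share was 1.87%. Without thinning, the median depths of these classes were 3933, 5925 and 6068 UMIs. The shares pool the suffixes, and 58 and 45 of the 107 cells were in suffixes 3 and 4. In suffixes 1 to 4, thinned Gata2 shares were 13.1%, 23.9%, 35.6% and 25.9% in members. In the other cells they were 5.34%, 5.27%, 6.06% and 5.37%. A score without Cpa3 gave members of whom 15.7% had a Gata2 UMI.

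Against all other cells of a suffix, other regulators of immature blood cells were higher with it. Sox4, a transcription factor of progenitors and leukaemia cells, stood at 187, 223, 253 and 211 CPM in members against 88.6, 67.2, 40.6 and 37.3 in the other cells, a ratio of 1.66. Ikzf2, which encodes the zinc finger protein Helios, stood at 37.4, 24.2, 78.2 and 129 against 7.31, 6.86, 7.37 and 14.1 CPM, a ratio of 1.79. Runx1, a core regulator of blood formation, stood at 87.4, 99.2, 138 and 106 against 52.3, 47.2, 59.6 and 65.9 CPM, a ratio of 1.00. For each of these 3 genes the member values lay above those of the other cells in every suffix. The chromatin organiser Satb1 had a ratio of 1.77, but in suffix 4 its levels were 35.2 and 24.9 CPM, a gap below 1.5-fold. Of 26 lineage transcription factors compared, 4 were higher (Gata2, Ikzf2, Sox4 and Runx1) and 1 lower (Cebpb, which drives late myeloid genes, at -0.94), with a list median of 0.41. Cebpa, Cebpe, Spi1 and Irf8, which steer the granulocyte and monocyte branches, were not called, with Cebpa at 0.44, Cebpe at 0.41, Spi1 at 0.02 and Irf8 at -0.84.

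Of 19 adhesion and homing receptors compared, 2 were higher (Itga4 and Cd63) and 0 lower, with a median of 0.22. The other receptors named here are single genes and not a list with a test. Kit, the stem cell factor receptor on which mast cells depend, stood at 39.9, 46.3, 24.1 and 0 CPM in members and 14.8, 13.5, 5.63 and 5.91 CPM in the other cells. The member values were higher in suffixes 1 to 3, while the 27 members of suffix 4 had 0 Kit UMIs, which allows up to 35.2 CPM. In thinned cells pooled over suffixes, a Kit UMI was found in 8.83% of members, 1.85% of the others and 0.935% of the neutrophil-granule-high cells. By suffix the shares were 11.1%, 8.70%, 6.67% and 0% in members and 3.33%, 2.63%, 0.977% and 1.10% in the others. P2ry14, a receptor for UDP-sugars found on blood progenitors, stood at 62.4, 28.6, 66.2 and 47 against 12.3, 3.81, 2.97 and 1.54 CPM, a ratio of 1.96. Itga4, the integrin chain that pairs with Itgb1 or Itgb7 and takes part in the homing of mast cell progenitors, stood at 142, 112, 349 and 106 against 45.9, 38.4, 42.6 and 39.1 CPM. Its partner Itgb7 differed less, at 54.9, 61.7, 283 and 329 against 49.5, 51.3, 145 and 127 CPM, and was not called. The endothelin receptor Ednra (1.53), the chemokine receptor Ccr1 (1.13) and the growth factor receptor Pdgfrb (1.38) were also higher. Pdgfrb is on the stromal and endothelial list, of whose 14 genes 10 had no UMI in members, among them Col1a1, Cxcl12 and Cdh5.

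Of the products that mast cells and basophils make, few were higher. Hdc, the enzyme that forms histamine, stood at 73.6, 50.7, 84.3 and 23.5 CPM in members and 35.7, 27.3, 7.17 and 7.8 CPM in the other cells, a ratio of 0.95. Its difference was 2.07-fold and 1.86-fold in suffixes 1 and 2 and 11.8-fold in suffix 3. Slc22a3, a transporter that carries histamine and other organic cations, stood at 68.7, 46.3, 66.2 and 11.7 against 12.1, 6.99, 1.33 and 2.13 CPM, a ratio of 2.10. Suffixes 1 to 3 showed the higher level in members, and suffix 4 held 1 UMI in members. Cd63, a tetraspanin of secretory granules, stood at 457, 573, 716 and 493 against 261, 341, 278 and 247 CPM, a ratio of 0.80. Hdc fell short of 1.5-fold in 3 of 24 alternative settings and Cd63 in 5, among them a score without Cpa3 (0.49 and 0.25) for both. The vesicular amine transporter Slc18a2 had 1 UMI among all members. Of 3 histamine and eicosanoid genes compared, only Hdc was called, and Alox5ap, which passes arachidonic acid to 5-lipoxygenase, lay on the other side at -0.49.

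**Figure D3:**
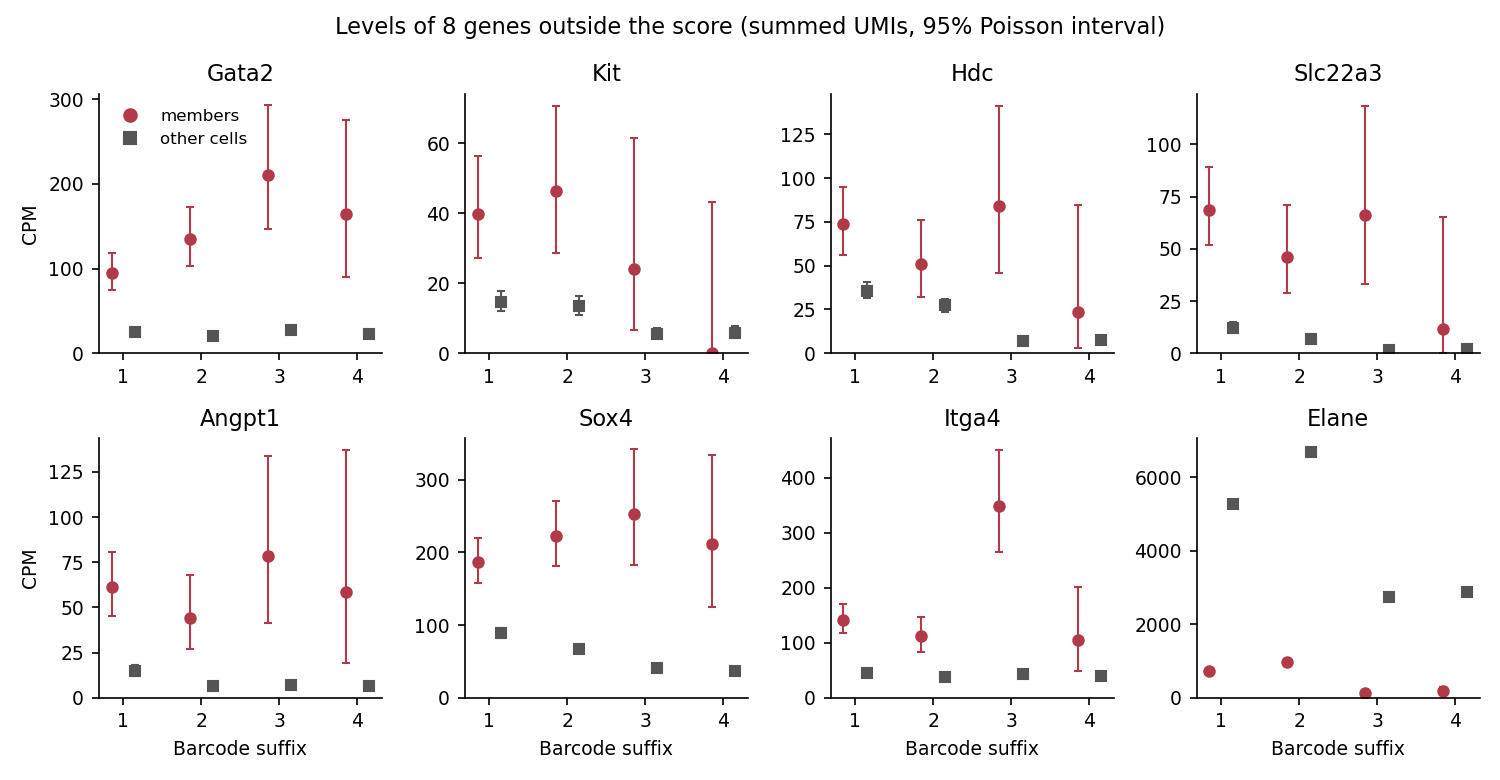
Levels in CPM of 8 genes outside the score in members (red circles) and other cells (grey squares) of each barcode suffix, with exact Poisson 95% intervals. Gata2, Angpt1, Sox4 and Itga4 were higher in members of all 4 suffixes, Kit had 0 UMIs in the members of suffix 4, and Elane was lower in members throughout.

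The mast cell list had 9 genes compared, of which 4 were higher (Gata2, Kit, Hdc and Cd63) and 0 lower, with a median of 0.62. The basophil list had 7 compared, with 2 higher (Gata2 and Hdc, which are on both lists), 0 lower and a median of 0.29. Genes of the receptor machinery differed little. Fcer1g, the signalling chain that the IgE receptor shares with other Fc receptors, stood at 1188, 1170.2, 1998 and 2033 CPM in members and 1056, 1015, 1472 and 1435 CPM in the other cells, a ratio of 0.20. Of 18 Fc epsilon receptor and Kit signalling genes compared, Kit alone was called, with the adaptor Lat2 at 0.62, the kinases Lyn at 0.10 and Syk at 0.09, and the IL-3 receptor chain Il3ra at 0.07. Of 16 granule storage genes, Cd63 alone was called. The list median was 0.01 (-0.08 with TMM scaling), and serglycin (Srgn) was at 0.18. Ctsg, a granule protease of both mast cells and neutrophil precursors, stood at 3470.0, 3612, 758 and 787 CPM in members and 3738, 3907, 1323 and 1451 CPM in the other cells. Its 2 values within a suffix lay close together in suffixes 1 and 2.

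Several basophil genes differed mainly in suffixes 3 and 4, where Mcpt8 was scarce. Ccl3, a chemokine, stood at 17.5, 11, 235 and 364 CPM in members against 26.9, 36.7, 108 and 101 in the other cells. It was thus lower in members of suffixes 1 and 2 and higher in those of suffixes 3 and 4. Ccl9, a chemokine that binds CCR1, stood at 448, 604, 885 and 728 against 415, 413, 266 and 275 CPM, and the early activation antigen Cd69 at 121, 108, 126 and 117 against 98.2, 87.2, 33.6 and 43.1 CPM. The basophil list had a median of 0.11 and 0.29 in suffixes 1 and 2 and of 1.72 in suffix 3. Macrophage transcripts moved in the same suffixes. The summed level of 18 macrophage genes was 253, 353, 5470.5 and 3149 CPM in members and 307, 388, 1813 and 1416 CPM in the other cells, with Wfdc17 giving most of it in members, at 169, 236, 5043 and 2538 against 143, 197, 1245 and 848 CPM. Of the 18 genes, 6 had no UMI in members (Mrc1, C1qb, C1qc, Mertk, Slc40a1 and Marco) and 12 had at least 1. The part of these transcripts in the levels of Ccl3 and Ccl9 was not tested.

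The remaining leading genes came from several cell functions. Angpt1, a secreted ligand of the TIE2 receptor made by blood stem cells, stood at 61.2, 44.1, 78.2 and 58.7 CPM in members against 14.9, 6.48, 6.96 and 6.62 CPM, a ratio of 2.10. Members had the higher value in each suffix. Gyg, which encodes the primer protein of glycogen synthesis, stood at 684, 948, 674 and 811 against 254, 217, 205 and 195 CPM, and a UMI of it was found in 69.1% of thinned members and 34.5% of thinned others. Stx3, a SNARE protein of granule fusion, stood at 26.2, 33.1, 120.4 and 188 against 2.92, 5.33, 27.2 and 26.9 CPM. Rab37, a small GTPase of secretory vesicles, had a ratio of 2.05, and the fucosyltransferase Fut8 of 1.72. The signalling adaptor Fyb stood at 91.1, 48.5, 271 and 235 against 24.1, 14.6, 84.4 and 75.1 CPM, Tespa1 had a ratio of 1.84, and Ptprcap, which binds CD45, of 1.55. Ddah2 (1.82), Emid1 (2.01) and H2-Ob, an MHC class II chaperone chain (1.68), completed the leading 15 with Bcas1os2 (2.20). Bcas1os2 is an antisense transcript of Bcas1, and the sources used here do not say whether counting used strand, so reads of the pair may not be told apart. Of 16 stem and progenitor genes compared, 7 were higher (Gata2, Angpt1, Ikzf2, Sox4, Ptprcap, Kit and Runx1) and 0 lower, with a median of 0.80. Over the alternative settings this median ran from 0.40 to 1.05. Angpt1, Ikzf2 and Kit passed the filter through their level in members, so the count and the median are in part built in. Flt3 stood at 147, 225, 223 and 188 CPM in members against 98.8, 81.2, 98.2 and 112 CPM and Cd34 at 173, 198, 367 and 211 against 145, 141, 119 and 125 CPM, and neither was called.

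The genes lower in members were led by neutrophil granule and calprotectin genes. Camp, the precursor of an antimicrobial peptide, stood at 0, 2.2, 138 and 70.5 CPM in members and 149, 196, 3119 and 2889.7 CPM in the other cells. S100a8 and S100a9, the calprotectin subunits, had ratios of -4.27 and -4.35, and Ngp, neutrophilic granule protein, of -4.09. The members of suffixes 1 and 2 held 0 Ngp UMIs, which allows up to 3.74 and 6.61 CPM against 63 and 80 CPM in the other cells. Of 12 neutrophil genes compared, 9 were lower and none was higher, and their median was -1.83. The stefin genes Stfa1 (-3.77), BC100530 (-3.80) and Gm5483 (-3.47) were lower too, and since they are near-identical copies their reads may be split between them. When the other cells were taken without the 25% highest in mature myeloid genes, S100a9 was no longer lower, at 0.017, since that choice itself uses S100a9.

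Primary granule genes of the promyelocyte stage were lower as well. Elane, neutrophil elastase, stood at 733, 965, 132 and 188 CPM in members and 5288, 6679.9, 2744 and 2871 CPM in the other cells, a ratio of -2.84. A UMI of Elane was found in 38.8% of thinned members and 67.8% of thinned others, and in 48.6% of the neutrophil-granule-high cells. Mpo, myeloperoxidase, stood at 754, 661, 30.1 and 0 against 2332, 2613, 451 and 449 CPM, a ratio of -1.97. Prtn3, proteinase 3, stood at 945, 1351, 758 and 858 against 2593, 3205, 1948 and 2145 CPM. In all 4 suffixes the member values of Elane, Mpo and Prtn3 were below those of the other cells. Of 18 granulocyte precursor genes, 7 were lower and 0 higher. Their median was -0.56, and Ms4a3, a membrane protein of granulocyte and monocyte progenitors, was at -2.93.

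Monocyte genes followed the same direction. Of 14 compared, 8 were lower, 0 were higher, and the median was -1.30. Ly6c2, a surface antigen of monocytes and their precursors, stood at 680.3, 1045, 722 and 869 CPM in members and 2344, 3060.0, 3009 and 3116 CPM in the other cells, a ratio of -1.78. Lysozyme (Lyz2) had a ratio of -1.96, the protease Ctss of -2.47, the NADPH oxidase chain Cybb of -2.60, and the coagulation factor chain F13a1 of -1.18. Ly6c2 can share reads with its near-identical neighbour Ly6c1. Clec4a2 (-2.16), Fcnb (-2.16), Chil3 (-2.76) and Ifitm3 (-2.13) were among the 15 lowest as well.

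**Figure D4:**
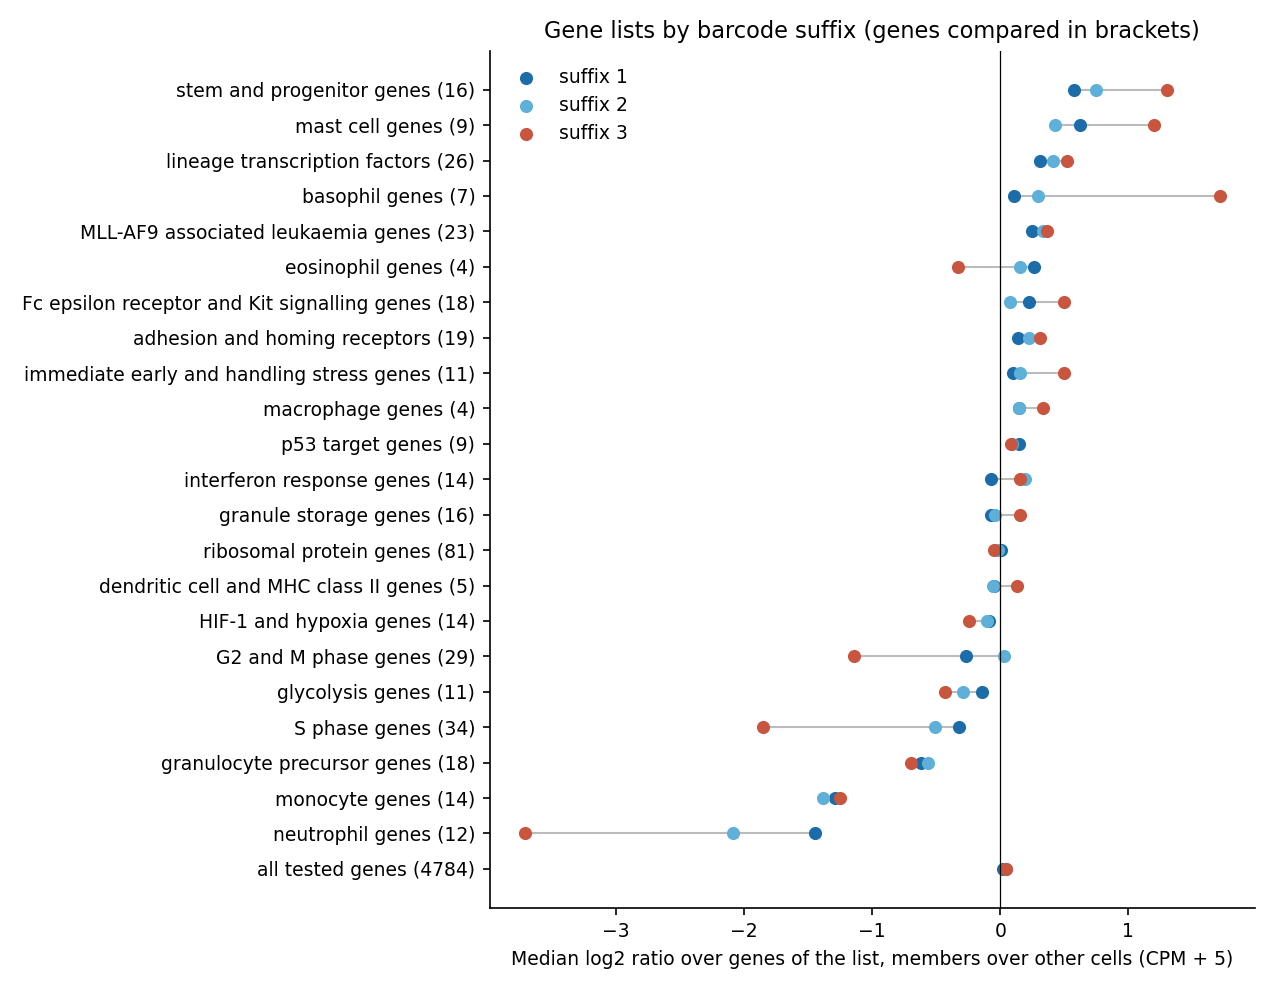
Median log2 ratio of members over other cells (CPM + 5) for each gene list, 1 point for each of barcode suffixes 1, 2 and 3, with the number of genes compared in brackets; lists with fewer than 4 genes compared are not drawn. Stem and progenitor genes lay to the right of 0 in each suffix, and neutrophil, monocyte and granulocyte precursor genes to the left, with neutrophil genes at -3.71 in suffix 3.

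Of 23 MLL-AF9 associated genes compared, 0 were higher and 0 lower, beside 1.8% and 1.61% of all genes compared. At such shares, 0 calls among 23 genes says little. The list median was 0.27, with 0.24, 0.33 and 0.37 in suffixes 1 to 3 beside 0.02, 0.04 and 0.05 for all genes. Summed over the list, members held 4284, 4284, 4760 and 5299 CPM in suffixes 1 to 4. The other cells held 3484, 3193, 3431 and 3499 CPM. Hoxa9, a direct target of the fusion protein, stood at 233, 187, 265 and 235 CPM in members and 196, 160.4, 168 and 155 CPM in the other cells, and its partner Meis1 at 64.9, 55.1, 90.3 and 58.7 against 44.1, 41.4, 48.2 and 50.8 CPM. The member values of Hoxa9 and Meis1 were the higher ones in each suffix, by less than the 1.5-fold limit in at least 1 of suffixes 1 to 3. Bcl2, a survival protein, stood at 207, 267, 319 and 587 against 150.2, 129.7, 152 and 150.1 CPM and fell short of the limit in suffix 1. Hif1a, the gene targeted in the knockout, stood at 47.4, 46.3, 18.1 and 11.7 against 37.4, 34.5, 29.7 and 26.7 CPM, a ratio of 0.31 that rested on 38, 21, 3 and 1 UMIs in members. A 3' tag outside the deleted part checks nothing about the genotype. Of 14 HIF-1 and hypoxia genes, 1 was higher (Egln3, an oxygen sensor, 0.82) and 1 lower (Lgals3, galectin 3, -1.37), with a median of -0.12. Of 11 glycolysis genes, Eno1 was lower (-0.78) and 0 were higher, with a median of -0.29.

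Of the cell cycle genes compared, 1 was called. The 34 S phase genes compared had a median of -0.51, with -0.32, -0.51 and -1.85 in suffixes 1 to 3, and 1 of them was called (Uhrf1, -0.67). The 29 G2 and M phase genes had -0.27, 0.03 and -1.14, with 0 called. Top2a, topoisomerase II alpha, stood at 76.1, 139, 6.02 and 0 CPM in members and 125, 96.9, 102 and 114 CPM in the other cells, so that it was lower in members of suffixes 1, 3 and 4 and higher in suffix 2. Pcna, the sliding clamp of DNA replication, stood at 88.6, 70.5, 12 and 23.5 against 119.7, 89.2, 68.9 and 76.4 CPM and was lower in members throughout. The 81 ribosomal protein genes had a median of -0.01, with 0 called.

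Transcripts of other blood lineages were few. Of the B cell genes 11 of 13 in the table had no UMI in members, and of the T and NK cell genes 10 of 13. Of 16 erythroid genes 8 had none, and of 14 megakaryocyte genes 7, among them Pf4 and Vwf. Itga2b, the megakaryocyte and early progenitor integrin chain CD41, was below the level needed for comparison but had 26.2, 13.2, 60.2 and 23.5 CPM in members against 1.61, 1.27, 1.43 and 1.54 CPM in the other cells, from 21, 6, 10 and 2 UMIs. Of the eosinophil genes 7 of 16 had none, including Epx, Il5ra and Ccr3, while Siglecf was higher (0.84). By the Scrublet caller, 27 of 5456 cells (0.495%) were marked as doublets, a share so low that the caller was taken not to have worked, and none were removed. Of the members, 5 were among the 5% of cells with the highest doublet score in their suffix.

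Genes outside the score were followed over its range. Gata2 in suffix 1 stood at 16.6 CPM in cells with a score of 0, at 36.8 CPM in the 80th to 88th percentile, at 42.2 just below the members, at 64.8 in the lower members and at 136 in the upper ones. In suffix 3 the same bins held 20.6, 104, 132, 131 and 277 CPM. In suffix 2 they held 16.3, 50.7, 41.1, 127 and 142 CPM, and in suffix 4 19.9, 55.9, 79.1, 202 and 132 CPM. The bin between a score of 0 and the 80th percentile held 24.55, 14.2, 29.7 and 19.3 CPM in suffixes 1 to 4. In suffixes 2 and 4 that was not above the level at a score of 0. Just below the limit, Gata2 was above its level in cells with a score of 0 in each suffix. Elane in suffix 1 ran the other way, at 6767, 2404, 1349, 1069 and 272 CPM. Between a score of 0 and the 80th percentile it was still at 6369 CPM. The class is a range of a score, so counts of its cells rest on the chosen share of 6%.

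**Figure D5:**
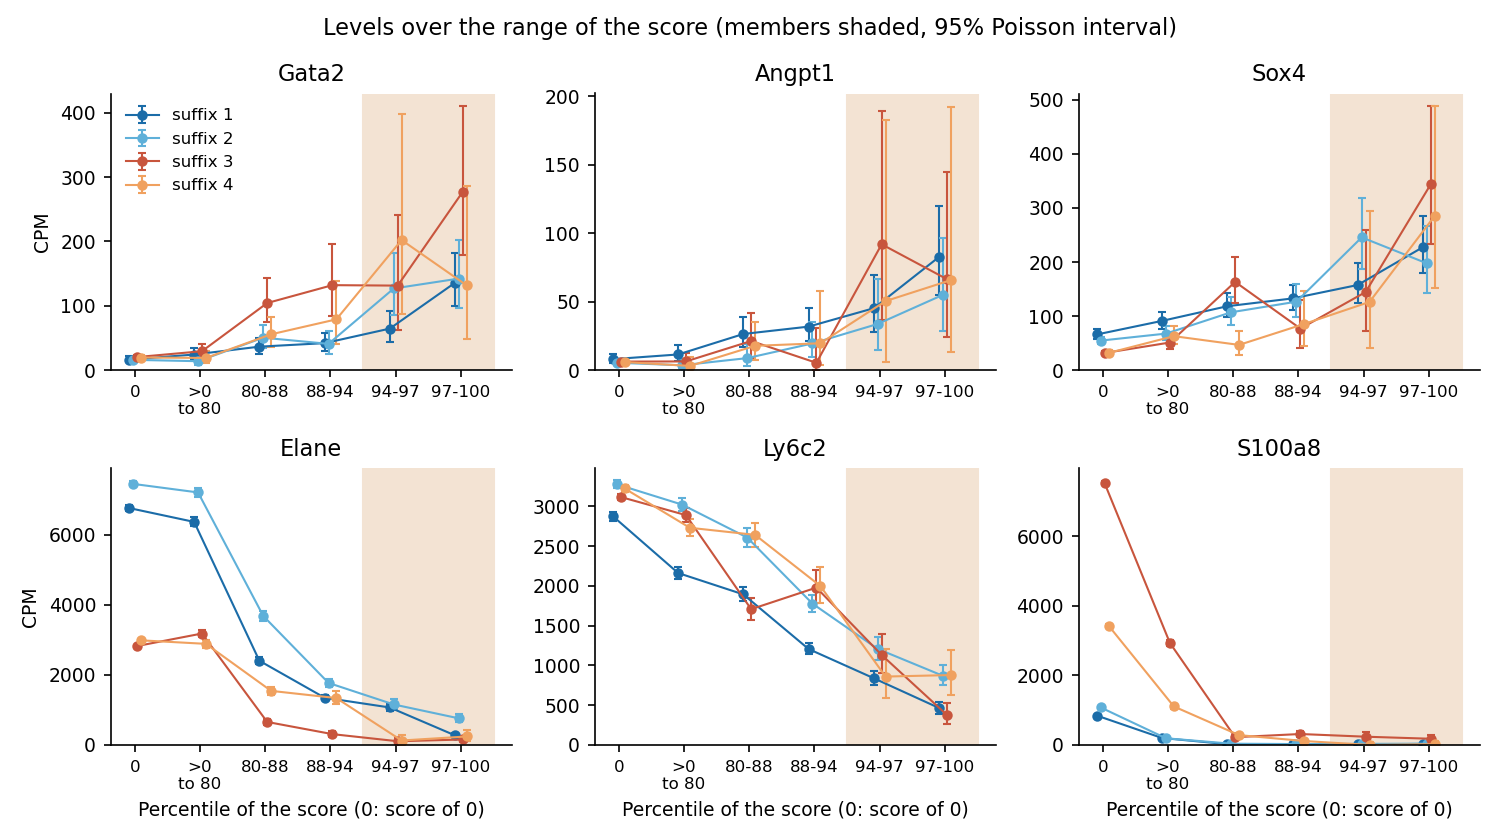
Levels in CPM of 6 genes outside the score over percentile ranges of the score, by barcode suffix, with exact Poisson 95% intervals and the members' range shaded; the leftmost bin holds cells with a score of 0. Gata2, Angpt1 and Sox4 were higher and Elane, Ly6c2 and S100a8 lower in the shaded bins than in cells with a score of 0, in every suffix.

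The members were also split by Mcpt8. Suffix 1 held 95 members with a Mcpt8 UMI and 61 without, and suffix 2 held 61 and 33. Suffixes 3 and 4 had too few with Mcpt8 to compare. The members with Mcpt8 were deeper, with median UMIs of 5454 and 4912 against 3583 and 3481. Of 4870 genes compared, 192 (3.94%) were higher and 239 (4.91%) lower in members with Mcpt8, at least 1.5-fold in both suffixes. With all cells thinned to 2000 UMIs and the members and the split taken anew, 320 genes were higher and 274 lower. A cell without Mcpt8 must reach the limit through Cpa3, Npy or Adgrg1, so the split is not independent of the rule. This bears on those genes and on any gene that varies with them, as Gata2 does over the range of the score. Finding a Mcpt8 UMI also depends on depth. The values below describe the split and do not show that the members hold different kinds of cell.

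Among the genes higher in the deeper, Mcpt8-positive members were proliferation genes. Of 31 S phase genes compared, 15 were higher and 0 lower, and of 29 G2 and M phase genes 14 were higher and 0 lower. Of all genes compared, 3.94% were higher and 4.91% lower. The medians of the lists were 0.86 and 0.93, beside -0.01 for all genes. Rrm2, a subunit of ribonucleotide reductase, stood at 190.0 and 150.0 CPM with Mcpt8 and 70.9 and 0 CPM without, in suffixes 1 and 2. Aurkb, a mitotic kinase, stood at 42 and 41.2 against 0 and 0 CPM, and Tyms, thymidylate synthase, at 119 and 103 against 31.5 and 0 CPM. A value of 0 here rests on only 61 or 33 members without Mcpt8, with median UMIs of 3583 and 3481. It still allows a low level. Aurkb passed the filter only through its level in members with Mcpt8. In both suffixes, these 3 genes thus had the higher CPM in the Mcpt8-positive members. Pold2 (2.68), Lmnb1 (2.67), Cenpw (2.38), Lig1 (2.37) and Prim1 (2.24), which serve DNA replication, the nuclear lamina or the centromere, completed the 8 highest.

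The split by Mcpt8 was also read over the granulocyte precursor and stem cell lists. Of 18 granulocyte precursor genes, 7 were higher (Elane, Fkbp11, Ms4a3, Mpo, Prss57, Gstm1 and Ctsg) and 0 lower. Elane stood at 970.0 and 1189 CPM with Mcpt8 and 221 and 299 CPM without, and Ctsg at 4030.0 and 4042 against 2262 and 2327 CPM. Mcpt8 and Ctsg lie close together on chromosome 14, where Ctsg (ENSMUSG00000040314.2) spans 56099881 to 56102574. Gata2 stood at 76.7 and 67.7 CPM with Mcpt8 and 134 and 334 CPM without, a ratio of -1.49. Of 18 stem and progenitor genes, 6 were lower (Gata2, Cd27, Erg, Gfi1b, Cd44 and Sox4) and 0 higher. The interferon-induced gene Rtp4 (-2.61), the adaptor Fyb (-2.35), the integrin chain Itga2b (-2.18) and Cdh17 (-1.93) were among the 8 lowest, with Arfgef1 (-2.26), Fam129a (-1.93), Zfyve27 (-1.91) and A430078G23Rik (-1.84). With the score taken without Mcpt8, 143 genes were lower.

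The members were next set beside other immature cells. The 6% of cells highest in Cd34 and Flt3, markers of stem and multipotent progenitors, shared 43 cells with the members, 13.1% of each class. That class made up 5.99% of all kept cells. With these shared cells left out, 4890 genes were compared in suffixes 1 to 3, of which 46 (0.941%) were higher and 77 (1.57%) lower in members. Cd63 led, at 438, 587 and 763 CPM in members and 57.4, 152 and 70.1 CPM in the Cd34 and Flt3 high cells, a ratio of 2.83. Kit stood at 39.4, 47.6 and 22.4 against 20.3, 7.81 and 0 CPM, and Hdc at 72, 50.3 and 89.7 against 16.9, 23.4 and 7.01 CPM. Gata2 stood at 89.7, 127 and 209 against 33.8, 58.6 and 63.1 CPM, a ratio of 1.29. Of 9 mast cell genes compared, these 4 were higher here and 0 lower. Kit and Hdc were low in the Cd34 and Flt3 high cells and passed the filter through their level in members. The count is therefore in part built in. Both comparisons use the same members, so the calls are not independent of those against all other cells. Cebpe, a transcription factor of granule genes, had a ratio of 1.95 here, while it was not called against all other cells. Sox4, Ikzf2, Elane and Mpo were called there but not here. Sox4 stood at 179, 225 and 262 CPM in members against 203, 160 and 131 CPM. Elane and Mpo were lower in members of suffixes 2 and 3. In suffix 1 they stood close, at 756 against 730 and 754 against 777 CPM. With Cd63, Kit, Cebpe and Hdc, the 8 highest were Bcas1os2 (2.24), the purine synthesis enzyme Impdh1 (1.96), Rab37 (1.89) and Angpt1 (1.65). Bcas1os2, Impdh1, Rab37 and Angpt1 each had only 0 to 7 UMIs per suffix in the Cd34 and Flt3 high cells.

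Against the Cd34 and Flt3 high cells, monocyte genes set the members apart from below. Of 14 compared, 9 were lower and 0 were higher. The median was -1.44, beside -0.01 for all genes. Ctss stood at 0, 10.6 and 89.7 CPM in members and 84.4, 102 and 376 CPM in those cells, a ratio of -2.77. The complement regulator Cfp (-2.72), Pld4 (-2.64), Ifitm6 (-2.51), C1galt1c1 (-2.26), vimentin (Vim, -2.02), Prdx4 (-2.00) and Mpeg1 (-1.98) were the others of the 8 lowest. Ifitm6 rested on 0, 0 and 1 UMIs in members against 1, 6 and 38, so its call in suffix 1 hangs on 1 UMI. With suffix 4 added by lowering the minimum to 20 members, 21 genes were higher and 40 lower. The 6% of cells highest in Gsn and Tsc22d1 shared 51 cells with the members, 15.6% of each class. That class too made up 5.99% of all kept cells. Both of these genes were higher in members (1.17 and 1.21). The 6% highest in Prg3, Clec4a2 and Mogat2 and the 2% highest in Ngp, Camp and S100a9 shared 0 cells with the members. In each of suffixes 1 and 2, where most members lay, these classes held only 10 and 2 cells. Few shared cells could therefore occur there.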

How the data were processed

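The data are single-cell libraries, for which the 10x Chromium 3' chemistry (V2) was used. The authors deposited a table of whole-number UMI counts per gene symbol and cell barcode with no normalization, for 27998 symbols and 5664 barcodes. Per the submitters' processing notes, Cell Ranger 1.3 and the mm10 build were used, with Seurat 2.3.4 for later steps (the design text names Seurat 1.4). The gene annotation was not given in these sources. Barcodes with over 10% mitochondrial UMIs were removed. UMIs were summed over members and over other cells of a suffix, scaled to CPM, and compared as log2 ratios with 5 CPM added, for genes averaging at least 20 CPM. The calls need 1.5-fold in every suffix with at least 30 cells on each side. Suffixes are not tied to samples and cells are not replicates, so no test was made. The call rule was tested on simulated data.

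Named genes are the score genes, the 15 highest and 15 lowest called, for each list the 2 with the highest level and the 2 others with the largest ratio, detected mast cell and basophil genes, Hif1a, and the 8 highest and lowest in the 2 further comparisons. Other genes named in the text were chosen after their values were seen. The members and gene lists were chosen with earlier results of these data known. Alternatives varied the pseudocount, filter, scaling, score, share, depth, doublets and suffixes. Depth was 7644436 to 9932649 UMIs per suffix, of which members held 801156, 453788, 166165 and 85108 in suffixes 1 to 4, so their levels are least precise in suffix 4. Python 3.11.15, scanpy 1.11.5, scipy 1.17.1, R 4.3.3 and edgeR 4.0.16 (TMM factors only) were used.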

Additional observations from a re-analysis of the deposited data

Results flagged for a closer look

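Of the 208 barcodes left out for over 10% mitochondrial UMIs, 13 (6.25%) had a score at or above that of the lowest member, which drew attention because these barcodes enter no comparison. They were 5, 4, 4 and 0 of the excluded barcodes of suffixes 1 to 4. The 27 members of suffix 4, too few for the calls, held 14 Gata2 UMIs, which is 164 CPM against 22.8 CPM in the other cells of that suffix.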

How the results depend on the processing

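No paired analysis was possible because each group has 1 sample and the suffixes carry no group or replicate number. The 86 higher and 77 lower genes became 130 and 127 with a filter at 5 CPM, 140 and 146 with no filter, 189 and 133 with 3% of cells as members, and 52 and 41 with 10%. All 86 and 77 were called again under both of these filters, 70 and 54 with 3%, 42 and 37 with 10%, 38 and 45 after thinning to 2000 UMIs, 38 and 50 within the middle range of the members' depth, and 38 and 39 with a score without Cpa3. Thinning gave 55 higher genes in all, and the middle depth range 155 lower genes, in suffixes 1 and 2 only. Another share, another score or thinning picked members anew and changed the suffixes in the calls. Only suffixes 1 and 2 entered with 3% of cells and without Cpa3. Suffixes 1 to 4 entered with 10%, within each suffix, without Mcpt8 and after thinning. The same suffixes entered against Cd34 and Flt3 high cells. Fewer suffixes make the rule looser and more make it stricter. Leaving out 1 suffix gave 103 to 215 higher and 95 to 135 lower genes. The shares of members in suffixes 1 to 4 were 6.13%, 4.0%, 1.72% and 0.996% with 3% of cells, 22.1%, 12.2%, 5.11% and 3.63% with 10%, and 5.96%, 6.0%, 6.03% and 5.97% by construction when taken within each suffix. A score without Cpa3 gave 1.35% and 1.14% in suffixes 3 and 4 and a Gata2 share of 15.7%, and a score without Mcpt8 gave 2.92% in suffix 4. In the Mcpt8 comparison, 192 higher and 239 lower became 97 and 92 with 10% of cells, higher became 320 after thinning, and lower became 143 with a score without Mcpt8. It could not be fitted with 3% of cells, with shares taken within each suffix, or with a score without Cpa3. Against Cd34 and Flt3 high cells, 46 higher and 77 lower became 154 and 203 (3%), 18 and 21 (10%), 12 and 22 (within each suffix), 91 and 158 (score without Cpa3), 23 and 40 (score without Mcpt8), and 21 and 40 with suffix 4, an alternative chosen after seeing the data. Thinning gave 51 lower. S100a9 changed sign to 0.017 without the cells highest in mature myeloid genes. Over the named genes and all alternatives, 2277 values kept their side of the 1.5-fold rule, 70 came past it, 52 fell short of it and 1 reversed. Apart from the exclusions by construction, the cause of these shifts was not tested. With 27 members, 1 UMI stood for 11.7 CPM in suffix 4.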

Other observations

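Some genes below the level needed for comparison differed between members and other cells. Gfi1b, a transcriptional repressor that acts in erythroid and megakaryocyte differentiation, stood at 26.2, 15.4, 6.02 and 0 CPM in members and 6.87, 1.65, 1.43 and 1.54 CPM in the other cells. Msi2, an RNA-binding protein of stem cells, stood at 28.7, 26.4, 6.02 and 11.7 against 11.1, 6.99, 2.35 and 3.54 CPM. They rested on 21, 7, 1 and 0 UMIs of Gfi1b and 23, 12, 1 and 1 of Msi2 in members, so the higher level was readable in suffixes 1 and 2. Alox5, the 5-lipoxygenase of leukotriene synthesis, had 18, 5, 8 and 4 UMIs in members, 22.5, 11, 48.1 and 47 CPM against 2.19, 2.16, 5.53 and 5.08 CPM in the other cells. Cd200r3, an activating receptor of mast cells and basophils, had 1, 3, 4 and 3 UMIs in members, 1.25, 6.61, 24.1 and 35.2 against 0.292, 0, 5.32 and 3.43 CPM. These genes were chosen after their values were seen.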
